A study of Drosophila melanogaster with 9 samples.

Results

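The comparison described here was male against female larvae of wild-type *Drosophila melanogaster*. Its members were all libraries whose labels gave a control male or a control female of the metafemale experiment, which were 6 of the 9 libraries of the series. The male group was 3 libraries of genotype XY and the female group was 3 libraries of genotype XX. Both groups were whole third-instar larvae of the Canton S wild-type strain per the study's methods, kept at the same temperature, with no mutation or treatment named for either sex. The remaining 3 libraries, from metafemales with an extra X chromosome, entered neither the scaling nor any fit. RNA-seq libraries were made from total RNA from which ribosomal RNA had been removed. Since whole larvae were sampled, each value is a sum over all larval tissues, and fewer cells of a type and less RNA per cell cannot be told apart. The number of larvae in each library was not given in the sources used here, and no label says that the libraries of a sex came from separate cultures, so p-values measure the spread between these libraries, which may be partly technical.

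In *Drosophila*, the number of X chromosomes sets the splicing of Sex lethal (*Sxl*), and the female Sxl protein directs the splicing of transformer (*tra*), which in turn directs that of doublesex (*dsx*). In males, where Sxl protein is lacking, *msl-2* is translated and its product assembles with other proteins and with the roX RNAs into the complex that raises transcription of the single X chromosome. The Y chromosome carries few genes, and these act mostly in sperm formation. At the end of larval life the male gonad already contains growing primary spermatocytes, which transcribe a large set of genes used in spermatids, whereas the larval ovary contains only undifferentiated germ cells and its somatic precursors.

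The deposited estimated counts of annotated transcripts were summed into 17714 genes. Library totals, including assembled transcripts without a FlyBase identifier, ranged from 130919406 to 177910781 in males and from 138223737 to 184268612 in females. A count was present for 15312 to 15937 genes in males and for 13680 to 13905 genes in females. The first principal component held 88.83% of the variance and separated the sexes. The second held 4.31% and set male 2 apart from the other males. In male 2, the summed level of 22 muscle genes was 18253 CPM (counts scaled to a library of 1000000), against 41545 and 36296 CPM in males 1 and 3 and 23256 to 39395 CPM in females. The summed level of 39 listed ecdysone and stage genes was 6110 CPM in male 2, against 4050 and 3391 CPM in males 1 and 3 and 4926 to 6184 CPM in females. The part of these differences in the results was not tested beyond leaving out male 2. For genes described below, a call that was lost when male 2 or another single library was left out is given with the gene. Calls of other genes can be lost in the same way. CPM values here are normalised for library size and not for transcript length. Fold changes compare levels within a gene, and any ranking of genes by level depends on transcript length too.

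The sexes differed mainly by genes that were high in males. A gene was called changed when the log2 fold change of males over females was above 1 in size and the adjusted p was below 0.05 (edgeR quasi-likelihood test with Benjamini-Hochberg adjustment). Of 13700 genes tested, 2412 rose in males, which is 17.6%, and 45 fell, which is 0.328%. For all 2412 of the genes that rose, the lowest male library lay above the highest female library. Libraries did not overlap between the sexes, with males higher, for 25% of all genes tested, and with males lower for 10.2%. Among the genes that rose, 906 had no count in any female library, 1212 had no more than 3 counts in any female library, and only 208 averaged at least 1 CPM in females. The differences were wide, and 2217 of the 2412 exceeded 4-fold and 1936 exceeded 16-fold by the fitted value, which for genes without female counts depends on the model. Of the 45 genes that fell, none was at 0 in all males, and 14 exceeded 4-fold. Together the genes that rose held 2.237, 3.221 and 1.985% of the gene counts of males 1 to 3, against 0.201, 0.218 and 0.228% in females 1 to 3. The genes that fell held 0.668, 1.18 and 0.798% of the counts in the males, against 2.266, 2.249 and 2.175% in the females. In every library most of this share came from *Fbp1* and *Fbp2*, described below, whose calls were both lost without male 1. The many genes that rose were thus mostly of low level, and the few that fell included some of very high level.

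**Figure D1:**
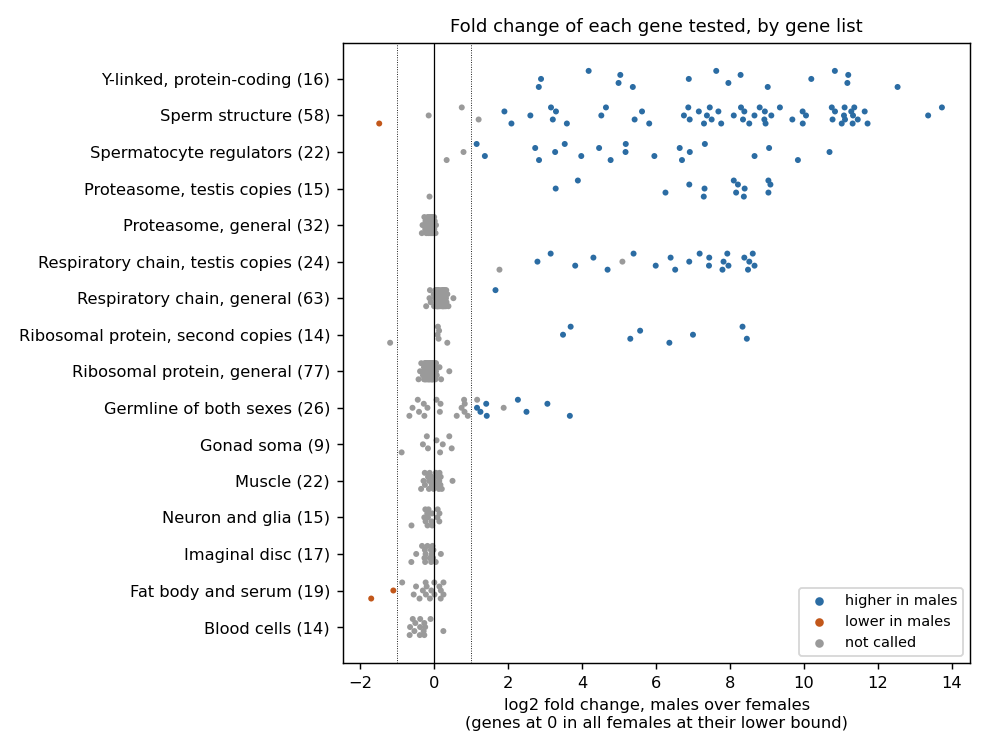
Log2 fold change of males over females for each tested gene of 16 gene lists, with blue points for genes called higher in males, orange points for genes called lower and grey points for genes not called; dotted lines mark a log2 fold change of 1 in either direction. Genes without a count in any female library are drawn at their lower bound, and the lists of testis genes lie to the right, whereas muscle and proteasome genes lie near 0.

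The genes that control the spermatocyte programme were high in males. Of 22 tested regulators of spermatocyte transcription, translation and meiosis, 20 rose and none fell, with a median log2 fold change of 4.97 against 0.0064 over all genes tested. The testis-specific paralogs of general transcription factor subunits were among them: *can*, a TAF5 homologue, was at 12.2, 12.2 and 11.3 CPM in males, against 0.186, 0.19 and 0.198 CPM in females (log2 fold change 5.95 ± 0.16 SE). *sa*, a TAF8 homologue, was at 8.02, 7.65 and 7.1 CPM in males and at 0.152, 0.0475 and 0.00991 CPM in females. *nht*, a TAF4 homologue, was at 5.05, 3.75 and 4.54 CPM in males and had no count in females, an at least 159.5-fold difference against a floor of 3 counts per library. Female libraries were at or close to 0 for each of these. Of the subunits of the testis meiotic arrest complex, *aly* was at 7.74, 5.94 and 6.41 CPM in males and had 0, 0 and 2 counts in females. *topi*, a zinc finger subunit of that complex, was at 10.3, 10.7 and 9.81 CPM in males and at 1.33, 1.11 and 1.89 CPM in females (log2 fold change 2.83 ± 0.23). *achi* and *vis*, adjacent near-identical homeobox genes whose reads can be split arbitrarily between them, rose by 1.37 ± 0.12 and 3.53 ± 0.13 on the log2 scale. Translation and meiotic entry were represented by *bol*, which encodes an RNA-binding protein needed for translation of the meiotic phosphatase *twe*. *bol* was at 186, 279 and 154 CPM in males, against 22.2, 17.9 and 24.1 CPM in females (log2 fold change 3.27 ± 0.27), and *twe* was at 11.5, 15.4 and 10.8 CPM against 1.85, 1.6 and 2.24 CPM. Neither showed any overlap between the sexes. The 2 regulators not called were *bam*, which ends the spermatogonial divisions and is also active in the female germline, with overlapping values of 3.36, 3.11 and 1.92 CPM in males and 2.71, 2.37 and 1.59 CPM in females, and *CycB3*, a mitotic and meiotic cyclin, whose log2 fold change of 0.79 ± 0.14 lay below the threshold.

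Genes for the building of the sperm itself were high in males and mostly near 0 in females. Of 58 tested genes of sperm chromatin, tail, mitochondrial derivative and late spermatid transcription, 54 rose and 1 fell, with a median log2 fold change of 9.52, or 8.37 when genes without female counts were set at their lower bound. The summed level of the list was 1632, 2077 and 1532 CPM in males, against 240, 219 and 155 CPM in females. *ProtA*, a protamine-like protein of sperm chromatin, was at 55.1, 70.7 and 47.6 CPM in males and without a count in females, an at least 2075-fold difference, and its neighbour and close copy *ProtB* was at least 1722-fold higher. The testis beta-tubulin gene *betaTub85D* was at 64.2, 84.7 and 53 CPM in males, against 0.0254, 0.076 and 0.0892 CPM in females (log2 fold change 10.05 ± 0.44). RNAs of these late genes were thus present in every male library and nearly absent from every female library. *Mst77F*, another sperm chromatin protein, was at 58.5, 74.7 and 59.9 CPM against 0.118, 0.161 and 0.248 CPM. The male-specific transcripts *Mst84Da*, *Mst84Db*, *Mst84Dc* and *Mst84Dd*, adjacent copies of a small repeat protein gene, were at 24.5 to 36.8 CPM in all males and had 0 counts in females 1 and 2 and 3 counts in female 3. *Cyt-c-d*, the testis cytochrome c, was at 71.7, 94.9 and 66.9 CPM in males, against 0.381, 0.304 and 0 CPM in females. *fzo*, the mitofusin that fuses spermatid mitochondria, had the smaller difference of 18, 28.5 and 15.8 CPM against 5.45, 4.18 and 5.05 CPM (log2 fold change 2.09 ± 0.26). The cup genes, which are transcribed after meiosis, included *c-cup* (12.4, 12.6 and 12.2 CPM against 0 counts, at least 445.7-fold) and *wa-cup* (at least 497.7-fold). The exception in direction was *gdl-ORF39*, at 1.1, 1.45 and 0.68 CPM in males and 2.89, 2.17 and 4.06 CPM in females (log2 fold change -1.49 ± 0.37), a call that was lost without female 1, female 3, male 1 or male 3, at log2 fold changes of -1.55, -1.23, -1.50 and -1.28. The 3 genes not called were *sowah* at -0.15, *m-cup* at 0.74 and *Dhc93AB* at 1.20, of which *sowah* and *Dhc93AB* overlapped between the sexes and *m-cup* did not.

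Most testis paralogs of subunits of the proteasome and respiratory chain, and 8 of 14 ribosomal protein paralogs, rose, whereas 1 general subunit of these complexes was called. Of 15 tested testis paralogs of proteasome subunits, 14 rose and none fell, with a median log2 fold change of 9.09, or 8.10 with lower bounds. *Prosalpha6T*, required for sperm formation, was at 8.41, 10.9 and 8.83 CPM in males and without a count in females (at least 336.2-fold), whereas *Rpt6R* was at 17.7, 18.1 and 14.4 CPM against 2.01, 1.86 and 1.29 CPM (log2 fold change 3.28 ± 0.22). *Prosalpha1R* was not called, at 26.9, 27.1 and 66.2 CPM in males and 76.6, 25.9 and 29.1 CPM in females. Of the 32 general proteasome subunits none was called by edgeR, 0 rose and 1 fell at an unadjusted p below 0.05, DESeq2 called 0, and their median was -0.11. Of 24 paralogs of the respiratory chain 22 rose with a median of 7.61, or 7.04 with lower bounds. *COX4L*, a paralog of a cytochrome c oxidase subunit, was at 18.7, 20.7 and 16.4 CPM in males, against 0.0931, 0.0285 and 0.0991 CPM in females (log2 fold change 7.96 ± 0.40). The call for *ATPsynepsilonL* (4.30 ± 1.01) was lost without female 1, male 1 or male 3, with log2 fold changes of 4.39, 4.09 and 4.16. *COX7AL2* and *COX7CL* were not called by edgeR. *COX7CL* passed without female 2, at 9.28, and was called by DESeq2 (5.09, adjusted p = 0.0328) and by edgeR with a replicate block (5.82, adjusted p = 0.0471). Of 63 general respiratory chain subunits 1 rose and none fell, with a median of 0.18. That gene was *ND-39*, a complex I subunit, at 401, 250 and 430 CPM in males against 127, 121 and 95.6 CPM in females (log2 fold change 1.65 ± 0.24). Of 14 ribosomal protein paralogs, 8 rose and none fell, among them *RpL22-like*, at 18.2, 14.6 and 18.3 CPM against 0.161, 0.057 and 0.178 CPM. Of the 77 general ribosomal protein genes none was called by edgeR, 0 rose and 3 fell at an unadjusted p below 0.05, DESeq2 called 0, and the median was -0.13.

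Further families with general and testis members were chosen after their values were seen and are given as a description. All 7 tested S-Lap leucyl aminopeptidases, enzymes of the sperm proteome, rose, and *S-Lap7* had the highest level at 130, 170 and 126 CPM in males, against 0, 0 and 0.0396 CPM in females. Of 7 genes of the cap-binding eIF4E family, 5 rose. *eIF4E3*, needed for spermatocyte meiosis, was at 51.1, 48 and 50.6 CPM in males and 0, 0 and 0.0495 CPM in females, whereas the general *eIF4E1* was at 164, 179 and 168 CPM in males and 177, 167 and 156 CPM in females and overlapped between the sexes. Of 18 tested dynein chain genes, 14 rose, while the cytoplasmic heavy chain *Dhc64C* was at 228, 238 and 169 CPM in males and 250, 224 and 248 CPM in females. All 7 factors that assemble dynein arms rose, such as *Zmynd10* at 25.8, 22.9 and 24.2 CPM against 0.186, 0.171 and 0.228 CPM (log2 fold change 6.96 ± 0.17). Of 10 tested tubulin tyrosine ligase-like enzymes, which modify tubulin tails, 7 rose, as did 4 of 5 ACX adenylyl cyclases. Of 15 mitochondrial tRNA synthetases 3 rose, or 20%, against 17.6% of all genes tested. These were *TrpRS-m* (28.1, 36.2 and 28.4 CPM against 6.86, 7.41 and 5.75 CPM, log2 fold change 2.21 ± 0.16), *ValRS-m* (1.60 ± 0.14) and *CysRS-m* (1.38 ± 0.13). Of 17 cytosolic synthetases none was called by edgeR, 2 rose and 2 fell at an unadjusted p below 0.05, and DESeq2 called 0. Of 20 heat shock genes 4 rose, or 20%, close to the 17.6% of all genes tested. They were the chaperonins *Hsp60B*, *Hsp60C* and *Hsp60D* and the gene *Hsp68*. *Hsp60C*, a mitochondrial-type chaperonin needed in spermatogenesis, was at 70.7, 105 and 57.1 CPM in males and without a count in females, an at least 2787-fold difference, and *Hsp68*, an inducible Hsp70-type chaperone, was at 30.4, 31.2 and 29.8 CPM against 8.01, 7.92 and 4.47 CPM (log2 fold change 2.16 ± 0.24).

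Genes active in the germline of both sexes gave a mixed picture. Of 26 tested genes of germline identity and the piRNA pathway, which silences transposons, 8 rose and none fell. That is 30.77%, against 17.6% of all genes tested, and the median log2 fold change was 0.81. *vas*, the germline RNA helicase, was at 5.9, 6.71 and 4.51 CPM in males and 0.702, 1.07 and 1.27 CPM in females (log2 fold change 2.49 ± 0.29). *aub*, a Piwi-family protein of the germline, was at 8.07, 7.48 and 7.93 CPM against 0.973, 0.95 and 0.892 CPM (3.06 ± 0.15), and *mael*, a piRNA pathway factor, was at 7.66, 7.68 and 8.6 CPM against 0.398, 0.598 and 0.892 CPM. These genes had countable levels in both sexes, and no male library overlapped a female library. *piwi*, which also acts in gonadal somatic cells, was at 2.91, 2.08 and 2.83 CPM in males and 3.87, 3.44 and 4.47 CPM in females and was not called (log2 fold change -0.59 ± 0.21). The remaining genes that rose were *AGO3*, *qin*, *spn-E*, *nanos* and *BoYb*, of which *nanos* lost its call without female 1, male 1 or male 3 (log2 fold changes 2.40, 2.33 and 2.01) and *BoYb* without any of female 1, female 2, female 3, male 1 or male 2 (1.20 to 1.58). Of 15 tested genes of the female germline and oogenesis, 2 rose in males and none fell. The share that rose, 13.33%, was close to the 17.6% of all genes tested, of which 0.328% fell. The genes that rose were *orb*, a translational regulator with a testis form, at 13.8, 21.9 and 13.5 CPM in males against 3.75, 2.92 and 2.9 CPM in females, and *ord*, a meiotic cohesion factor, at 4.89, 4.77 and 3.63 CPM against 0.0931, 0.076 and 0.0892 CPM. Only 2 of 19 genes of adult oogenesis, mostly chorion and vitelline membrane genes, were high enough to be tested. Of 9 genes of the somatic gonad, such as *tj* and *zfh1*, none was called by edgeR, 0 rose and 2 fell at an unadjusted p below 0.05, and DESeq2 called 0. *tj*, a transcription factor of somatic gonadal cells in both sexes, was at 0.327, 0.47 and 0.546 CPM in males and 0.212, 0.332 and 0.426 CPM in females. Of 55 genes of the adult accessory gland, 8 were tested, 1 rose and 1 fell. *Acp95EF* was at 0.307, 0.581 and 0.425 CPM in males and 0, 0 and 0.0198 CPM in females. *Acp24A4*, with a log2 fold change of -1.74 ± 0.42, lost its call without female 1, female 3, male 1 or male 2 (-1.80, -1.47, -1.80 and -1.48). Without male 2 or male 3, 2 genes of this list rose.

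The Y-linked genes matched the sex labels in every library. Of 113 annotated Y genes, 71, 79 and 69 had a count in males 1 to 3, against 1, 1 and 0 in females 1 to 3. Of the 23 Y-linked protein-coding genes 16 were tested and all 16 rose, and the summed level of the 23 was 402, 620 and 241 CPM in males and 0 CPM in every female library. The axonemal dynein heavy chain *kl-3*, an exceptionally long fertility gene, was at 178, 244 and 72.1 CPM in males, which is at least 5914-fold above the female floor and the largest bound among Y-linked genes. *kl-5* was at 55.6, 107 and 29.9 CPM (at least 2307-fold), and *kl-2* was at 28.9, 50 and 19.1 CPM (at least 1173-fold), both also axonemal dynein heavy chains. For these 3 fertility genes male 2 was the highest and male 3 the lowest library. *Ppr-Y* was at 42, 98 and 56.1 CPM (at least 2345-fold), and *WDY*, a WD-repeat gene, at 57, 65.1 and 30.5 CPM (at least 1825-fold). *FDY*, a Y-linked copy of an autosomal gene, was at 9.77, 7.26 and 9.02 CPM (at least 311.6-fold). The lowest named levels were those of the protein phosphatase genes *Pp1-Y1* (0.833, 1.19 and 0.704 CPM) and *Pp1-Y2* (0.872, 1.59 and 0.996 CPM). Of the 29 tested Y genes of all kinds only the pseudogene *CR41507* was not called, at 0.248, 0.196 and 0.194 CPM in males and 0.0339, 0.104 and 0 CPM in females. Of 54 listed genes of the Stellate and Su(Ste) repeats and their *betaNACtes* relatives, 9 were tested and all 9 rose. The copies of these repeats are near-identical, and their counts are uncertain. *Ste12DOR* lost its call without female 1 (4.11) or male 1 (3.53).

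**Figure D2:**
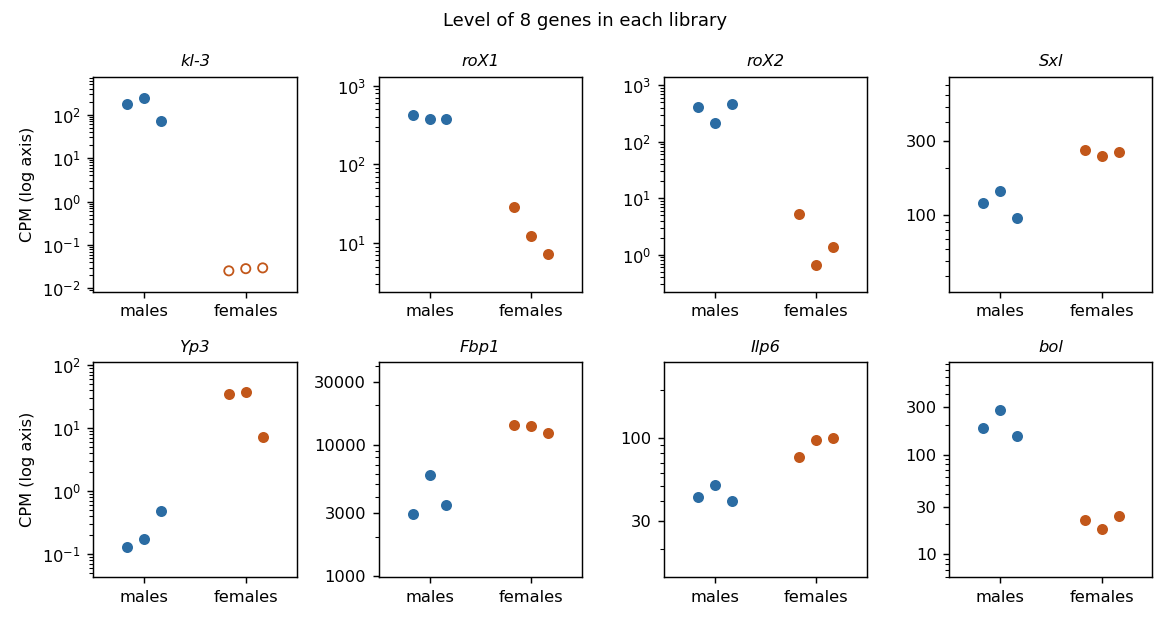
Level of 8 genes in each library, in CPM on logarithmic axes, with males left of females; open circles are libraries with 0 counts, drawn at the floor of 3 counts. *kl-3* had no count in any female library, lncRNA:roX1 and lncRNA:roX2 were high in all males, and *Sxl*, *Yp3*, *Fbp1* and *Ilp6* were lower in all males than in any female.

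Of the sex determination genes only *Sxl* was called in amount, and the shares of the transcript forms of *Sxl*, *tra* and *dsx* did not overlap between the libraries of the sexes. Of 18 tested genes of the pathway none rose and 1 fell. *Sxl* was at 119, 142 and 94.8 CPM in males, against 262, 242 and 254 CPM in females (log2 fold change -1.09 ± 0.17, edgeR adjusted p = 0.003289), and this call was lost without male 3, at -0.97, below the fold threshold. *dsx* was at 64.7, 84.7 and 38.5 CPM in males and 119, 108 and 127 CPM in females (log2 fold change -0.91 ± 0.28, edgeR adjusted p = 0.06981), and passed without male 2, at -1.19. *tra* was at 1.02, 1.24 and 0.486 CPM in males and 1.73, 1.65 and 1.71 CPM in females and was not called. *fru*, which has sex-specific forms in neurons, was at 413, 282 and 316 CPM in males and 520, 357 and 378 CPM in females, and the libraries overlapped. Its transcript of highest level, fru-RF, held 72.1, 67.37 and 66.26% of the gene's count in males and 67.49, 66.7 and 68.1% in females, which overlapped too.

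Counts of single annotated transcripts were summed into long and short reading frames for *Sxl* and *tra*, into female and male forms for *dsx*, and into spliced and unspliced leaders for *msl-2*. The 18 *Sxl* transcripts with a long reading frame, of 314 to 722 codons, held 19.97, 22.74 and 20.65% of the gene's count in males, against 75.2, 90.9 and 85.75% in females. The other 7, with a reading frame of 42 to 48 codons, held 78.88 ± 1.44% in males and 16.05 ± 8.0% in females (SD, n = 3 each). No male share reached a female share for either form. For *tra*, the transcript with the long frame of 197 codons held 3.92, 0 and 10.08% in males, against 47.78, 40.8 and 34.11% in females. The *tra* transcript with the short frame of 36 codons held most of the gene's count in both sexes, at 52.22, 59.2 and 65.89% in females. For *dsx*, the female form of 427 codons held 13.48, 30.85 and 65.96% in males, against 90.83, 94.43 and 95.46% in females, and the male form held 86.52, 69.15 and 34.04% in males, against 9.17, 5.57 and 4.54% in females. Male 3 carried the largest share of the female *dsx* form among males and still lay below all females. For *msl-2*, the transcript whose leader intron is removed held 63.8, 59.44 and 43.55% in males, against 0, 0 and 18% in females. The 2-sided exact permutation test over libraries gave p = 0.1 for each of these, which is the smallest p that 3 against 3 libraries allow. Reads shared between transcripts of a gene are divided by the authors' software, so these shares are estimates.

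**Figure D3:**
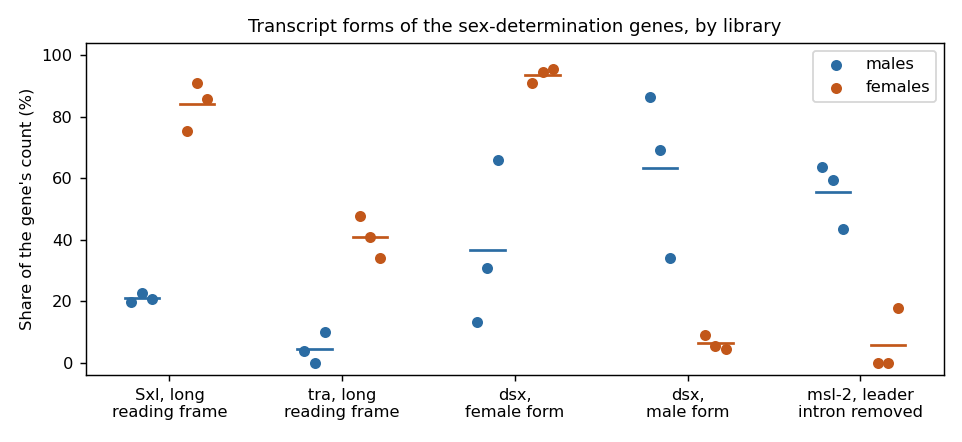
Share of each gene's count, in percent, held by the long reading frame of *Sxl*, the long reading frame of *tra*, the female and male forms of *dsx* and the *msl-2* transcript without its leader intron, with points for libraries, lines for means and males left of females. The long *Sxl* frame lay between 19.97 and 22.74% in males and between 75.2 and 90.9% in females.

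Of the genes of X-chromosome dosage compensation, the RNAs and *msl-2* rose. Of 11 tested genes, 3 rose, or 27.27%, against 17.6% of all genes tested, and none fell. lncRNA:roX1 was at 429, 376 and 378 CPM in males and 28.7, 12.2 and 7.24 CPM in females (log2 fold change 4.62 ± 0.55, edgeR adjusted p = 0.0008682). lncRNA:roX2 was at 410, 217 and 463 CPM in males and 5.2, 0.674 and 1.37 CPM in females (log2 fold change 7.23 ± 0.93, edgeR adjusted p = 0.001373). Both RNAs had low but countable levels in all females. *msl-2*, the protein subunit limited to males, was at 14.4, 18.1 and 12.1 CPM against 6.27, 5.6 and 8.42 CPM (1.14 ± 0.22), and lost its call without male 2, at 0.98. The other subunits were not called: the helicase *mle* was at a log2 fold change of 0.23 ± 0.11, *msl-3* at 0.46 ± 0.13, the acetyltransferase *mof* at 0.51 ± 0.19 and the scaffold *msl-1* at -0.07 ± 0.17. *Clamp*, a zinc finger protein that recruits the complex, was at 0.11 ± 0.11.

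The X chromosome as a whole was slightly lower in males than the autosomes. In each library the median log2 level of 1972 X-linked protein-coding genes, relative to the female means, was set against that of 10303 genes on the autosomal arms. The difference was -0.14, -0.13 and -0.18 in males 1 to 3, against 0.014, -0.029 and 0.011 in females 1 to 3. All males lay below all females, and the means were -0.1522 ± 0.0275 in males and -0.0016 ± 0.0240 in females (SD, n = 3 each). Their difference was -0.1506 on the log2 scale, a ratio of 0.901, with an exact permutation p = 0.1 (2-sided), the smallest p these libraries allow. The permutation kept the female means as the reference, so female values are drawn towards 0 by construction. The p-value does not allow for this. Among genes with at least 1 CPM in every library, the median log2 fold change was -0.19 for 1467 X-linked genes (quartiles -0.34 and -0.01) and -0.05 for 7480 autosomal genes. Only 24 of these X-linked genes, or 1.64%, lay between -1.25 and -0.75, the range around the value that equal output per gene copy gives, as did 49 autosomal genes, or 0.655%. At an adjusted p below 0.05 without a fold threshold, 74 of the X-linked genes fell and 38 rose (edgeR), against 69 that fell and 405 that rose on the autosomal arms. Over all genes tested, 1.28% fell and 19.5% rose at that threshold. The histogram of fold changes shows the X-linked genes as a whole shifted to the left by a small amount.

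**Figure D4:**
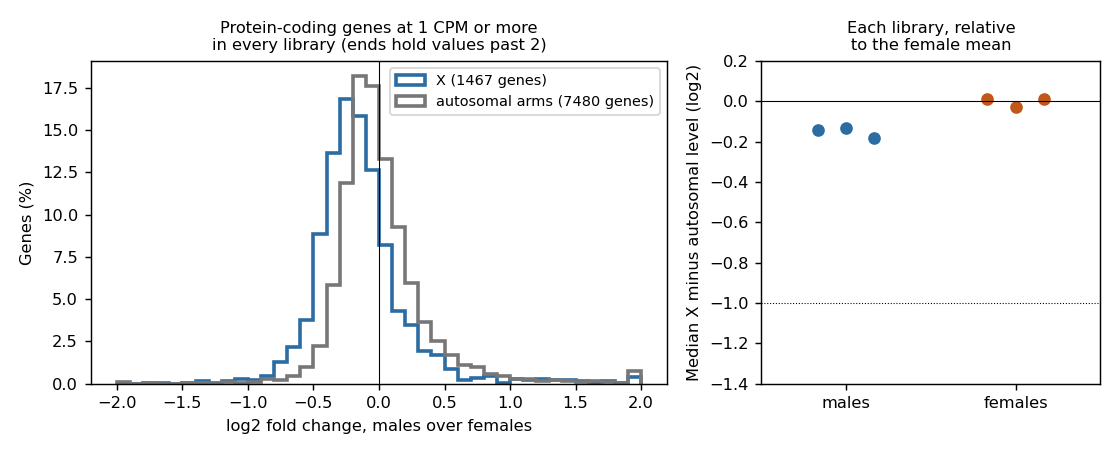
Left, distribution of the log2 fold change of males over females for 1467 X-linked and 7480 autosomal protein-coding genes with at least 1 CPM in every library. Right, median log2 level of X-linked minus autosomal genes in each library, relative to the female means, with a dotted line at -1 and the males at -0.18 to -0.13 and the females at -0.029 to 0.014.

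Genes that rose were found on every major arm. Of the tested genes on the X chromosome 362, or 16.83%, rose, as did 544 or 21.07% on 2L, 456 or 16.33% on 2R, 460 or 17.18% on 3L and 552 or 16.54% on 3R. On the small chromosome 4, 3 of 94 tested genes rose (3.19%) and none fell. They were *JYalpha*, a sodium pump subunit needed for male fertility, at 13.5, 17.4 and 12.5 CPM in males against 0.169, 0.057 and 0.159 CPM in females (log2 fold change 6.80 ± 0.42), *CG32006* (4.76 ± 0.22) and asRNA:CR44027 (6.66 ± 0.94). Of 20 tested mitochondrial genes none was called by edgeR, 0 had an unadjusted p below 0.05, and DESeq2 called 0. The genes that fell were placed unevenly, with 20 of the 45, or 44.44%, on the X chromosome, which holds 15.7% of the genes tested. On the X chromosome 0.93% of the tested genes fell, against 0.22% on the autosomal arms. The 5 X-linked genes of lowest p among those that rose were *CG15461*, *CG32820*, *CG13021*, *CG3323* and *CG1958*, and *CG3323* was at 11.6, 16.9 and 12.7 CPM in males against 0.195, 0.19 and 0.248 CPM in females.

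**Figure D5:**
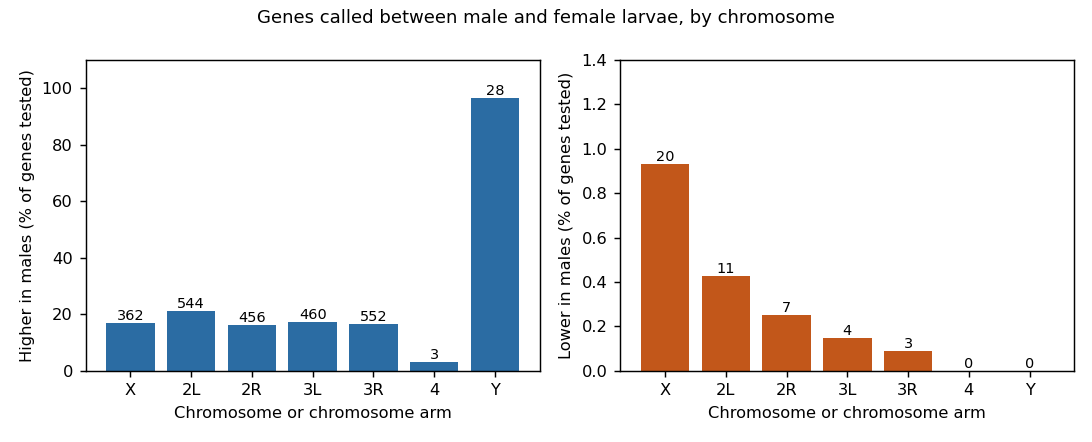
Percent of tested genes on each chromosome arm called higher in males and called lower in males, with the number of genes above each bar; the panels have different scales. The Y chromosome is at 96.55% and chromosome 4 at 3.19% for genes higher in males, and the X chromosome has the highest percentage of genes lower in males, at 0.93%.

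Yolk protein and fat body genes were among the few that fell. Both tested yolk protein genes fell. *Yp3* was at 0.129, 0.17 and 0.474 CPM in males, against 34.9, 37.1 and 7.17 CPM in females (log2 fold change -6.73 ± 0.88, edgeR adjusted p = 0.001454). *Yp2* was at 0.0991, 0.0196 and 0 CPM in males and 1.49, 1.43 and 0.743 CPM in females. These genes are known for their output in the adult female fat body and ovary, and here *Yp3* was already unequal in larvae. Of 19 genes of the larval serum proteins and fat body, 2 fell and none rose. *Fbp1*, the receptor through which the fat body takes up serum proteins, was at 2958, 5874 and 3508 CPM in males and 14104, 13867 and 12329 CPM in females (log2 fold change -1.71 ± 0.32). *Fbp2* was at 3164, 3726 and 4555 CPM in males and 8749, 8220 and 7708 CPM in females (-1.11 ± 0.22). The call for *Fbp1* was lost without male 1, at -1.52 with an edgeR adjusted p = 0.0511, and that for *Fbp2* without male 1, at -0.99, or female 1, at -1.07. The serum proteins themselves were not called, and *Lsp1alpha*, the X-linked subunit, was at 10056, 6135 and 13107 CPM in males and 20366, 13500 and 9279 CPM in females, values that overlapped between the sexes, with a log2 fold change of -0.56 ± 0.41. *apolpp*, the lipid carrier of the haemolymph, was at -0.87 ± 0.34 and did not pass.

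Growth, immune and other genes made up the rest of those that fell. Of 15 tested insulin and growth pathway genes 1 fell and none rose in edgeR, in which 0 rose and 5 fell at an unadjusted p below 0.05. DESeq2 called 1 higher, *Ilp8*, a relaxin-like peptide of damaged or slowly growing discs, which the filter on low counts kept out of the edgeR test and which had 111, 6 and 8 counts in males and 0 counts in every female. *Ilp6*, the X-linked insulin-like peptide of the fat body, was at 42.4, 50.8 and 39.8 CPM in males and 76, 96.8 and 99.9 CPM in females (log2 fold change -1.04 ± 0.16), just past the threshold, and dropped below it without female 2 (-0.99), female 3 (-0.97) or male 3 (-0.99). Of 17 antimicrobial peptide and stress genes 2 fell, *DptA* at 10.2, 7.42 and 18 CPM in males against 95.1, 23 and 187 CPM in females, and *Mtk* at 0.922, 1.07 and 1.63 CPM against 8.01, 3.47 and 13.7 CPM (log2 fold change -2.80 ± 0.53). Female 2 was the lowest female library for both peptides, and leaving it out gave 6 genes of the list that fell. At an unadjusted p below 0.05 in edgeR, 1 gene of the list rose and 5 fell. DESeq2 called 1 higher and 4 lower. The higher one was *Drs* (log2 fold change 1.88), which edgeR called higher only without female 3, at 2.97. The call for *DptA* (-3.10 ± 0.77) was lost without female 1, female 3, male 1, male 2 or male 3, at log2 fold changes of -3.54 to -2.29. *hll*, an acyl-CoA synthetase gene, was at 64, 30.6 and 51.6 CPM in males and 201, 192 and 200 CPM in females (-2.02 ± 0.27). The arginine kinase gene *Argk1* was at 81, 63 and 70.2 CPM against 169, 122 and 172 CPM (-1.11 ± 0.18), and *gem* at 63.8, 82.7 and 57.6 CPM against 139, 146 and 151 CPM. Among X-linked genes, the acetylcholine receptor subunit gene *nAChRalpha3* was at 2.76, 4.19 and 3.11 CPM against 7.85, 8.83 and 8.81 CPM (-1.34 ± 0.19), and *Mur2B*, a mucin-like gene, at 6.06, 5.51 and 5.54 CPM against 13.2, 13.6 and 11.2 CPM (-1.15 ± 0.13). *CG17931* was at 1.38, 2.04 and 9.04 CPM in males and 32.3, 29.1 and 30.7 CPM in females, and its call was lost without any library other than male 3, at -2.91 to -2.48. *Snx27* (-1.07 ± 0.20) lost its call without female 3 (-0.93) or male 3 (-0.98).

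Lists that mark other tissues of the larva held few calls. Over all genes tested, 17.6% rose and 0.328% fell. Of 22 muscle genes and 17 imaginal disc genes none was called by edgeR, none had an unadjusted p below 0.05, DESeq2 called 0, and the medians were -0.01 and -0.12. Of 15 genes of neurons and glia 0 were called, 0 rose and 1 fell at an unadjusted p below 0.05, and DESeq2 called 0, and the same counts held for 8 genes of the genital disc. Of 31 tested ecdysone and stage genes 0 were called by edgeR and 0 by DESeq2, 1 rose and 4 fell at an unadjusted p below 0.05, and the median was -0.20. Of 61 gut genes 0 were called by edgeR, 1 rose and 2 fell at an unadjusted p below 0.05, and DESeq2 called 1 higher. Without male 2, 4 gut genes rose, 1 gene of the imaginal discs (*bi*) and 1 of the genital disc (*Poxm*) fell, and without female 2 or female 3, 1 gene of the ecdysone list rose. Of 14 blood cell genes 0 passed the fold threshold in edgeR or DESeq2, and 6 had an unadjusted p below 0.05 with a negative fold change. Of these, *NimC1*, a phagocytosis receptor of plasmatocytes, was at 25.8, 32.3 and 27.4 CPM in males and 46.5, 46.8 and 42.5 CPM in females (log2 fold change -0.67 ± 0.12), and the receptor *eater* was at -0.51 ± 0.11. Of 75 tested cuticle genes 1 rose, *Twdlalpha*, at 4.87, 7.11 and 4.01 CPM in males against 0.102, 0.123 and 0.0892 CPM in females. Without male 2, 4 cuticle genes rose, and 1 fell when female 1 or any male was left out. Of 82 cytochrome P450 genes 3 rose, with *Cyp309a2* at 8.64, 9.47 and 7.54 CPM against 0.339, 0.161 and 0.178 CPM, and 5 rose and 1 fell without male 2. Of 64 glutathione transferase and UDP-glycosyltransferase genes 2 rose, *Ugt305A1* (1.49 ± 0.13) and *GstO1* (1.03 ± 0.14), the last of which lost its call without female 3 (0.93) or male 2 (0.99). Of 11 tested glue genes of the salivary gland 1 rose, *ng2*, at 4.97, 3.63 and 7.14 CPM against 3.11, 2.03 and 2.19 CPM (1.10 ± 0.30), a call lost without any library other than male 2, at 0.80 to 1.31. Of 31 tested odorant-binding protein genes 3 rose, and of 18 DNA replication genes 0 were called by edgeR or DESeq2, with 1 that rose and 1 that fell at an unadjusted p below 0.05, and 1 that rose, *dup*, without male 2.

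Some genes of high mean level over the libraries of both sexes rose as well, a few of them high in males only. Among the genes called, those of the highest mean level included *sm*, an RNA-binding protein gene, at 655, 772 and 582 CPM in males and 222, 251 and 251 CPM in females (log2 fold change 1.47 ± 0.15), and *Pu*, the GTP cyclohydrolase of pteridine synthesis, at 453, 820 and 541 CPM against 101, 229 and 145 CPM (1.93 ± 0.36). *AGO3*, a Piwi-family protein, was at 355, 329 and 299 CPM against 134, 128 and 180 CPM (1.15 ± 0.17), and *toc* at 185, 233 and 139 CPM against 84.8, 67.7 and 75 CPM (1.29 ± 0.21). In none of these did the sexes overlap, and the differences were moderate beside those of the testis genes. *ymp* was at 283, 355 and 263 CPM in males and 0, 1.06 and 2.14 CPM in females. The ribosomal RNA gene 18SrRNA:CR41548 was at 12.1, 342 and 471 CPM in males and 1.07, 0.418 and 0.406 CPM in females, values that also depend on how far ribosomal RNA was removed from each library and on how reads were divided among identical copies. Its call was lost with a replicate block (8.23, edgeR adjusted p = 0.074) and without replicate 2 of both sexes (8.36, edgeR adjusted p = 0.0519).

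Of 910 tested lncRNA genes 330 rose, or 36.26%, and 7 fell, or 0.769%, against 2041 (16.48%) and 35 (0.283%) of 12386 protein-coding genes. The difference between these shares was not tested, and its size depended on the fit. With a replicate block 16.81% of the lncRNA genes rose against 15.32% of the protein-coding genes, without a filter on low counts 20.33% against 15.26%, and with at least 10 counts in every library 5.74% against 4.63%. Apart from the roX RNAs, lncRNA:CR43278 on the X chromosome was at 51.4, 52.4 and 42.5 CPM in males and without a count in females, an at least 1750-fold difference, and lncRNA:CR32657, also X-linked, was at 14.7, 17.5 and 13.8 CPM against 0 counts (at least 551.2-fold). asRNA:CR45026 on 3L was at 6.23, 6.61 and 5.46 CPM against 0.152, 0.123 and 0.139 CPM (log2 fold change 5.45 ± 0.21). Since the strand of the libraries was not given in the sources used here, reads of an antisense RNA and of its partner gene cannot be told apart. Of the 7 lncRNA genes that fell, 6 lay on the X chromosome, where 116 lncRNA genes were tested, and 1 lay on an autosomal arm, where 785 were tested. lncRNA:CR45204 was at 0.0297, 0.0391 and 0.0243 CPM in males and 0.406, 0.237 and 0.476 CPM in females (-3.50 ± 0.47), and lncRNA:CR43496 was at 4.72, 3.33 and 5.16 CPM against 8.75, 9.42 and 10.6 CPM (-1.13 ± 0.20), a call lost without male 2, at -0.95. The call for lncRNA:CR43493 (-1.39 ± 0.29) was lost without female 1 (-1.18) or male 3 (-1.41), and that for lncRNA:CR45517 (-1.07 ± 0.22) without female 3 (-0.97), male 2 (-0.94) or male 3 (-1.03). lncRNA:flam, the precursor of piRNAs in the somatic cells of the ovary, was chosen after its values were seen, and was at 0.258, 0.463 and 0.219 CPM in males and 0.897, 0.769 and 0.783 CPM in females (-1.37 ± 0.36). Its call was lost without female 1 (-1.32), female 2 (-1.42), female 3 (-1.41), male 1 (-1.24) or male 3 (-1.20), and held without male 2 (-1.76).

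The genes that rose were shorter and had fewer exons than the genes tested as a whole. The 2041 protein-coding genes that rose had a median coding length of 879 bases and at most 2 exons at the median, against 1255.5 bases and 4 exons over all 12386 tested, and 33.07% had a single exon, against 13.51%. A symbol made of CG and a number, given to genes without a name of their own, was carried by 1429 of them, or 70.01%, against 41.72% of all tested. Genes that rose often lay side by side. Of 2101 whose next tested neighbour did not overlap them, 766 had a neighbour that rose too, or 36.46%. Of 8488 genes that did not rise and were followed by such a neighbour, 1012 had one that rose, or 11.92%. There were 49 runs of at least 5 tested genes in a row that rose, and genes within these runs could overlap. The longest held 17 genes on chromosome arm 2R (23183977 to 23327581, build BDGP6.54), from *CG13539* to *tbrd-3*, and contained *RpL22-like*, *ord* and *Prosbeta5R1*, which belong to different lists above. A run of 12 genes on 3R (7331500 to 7423057) held the 4 *Mst84D* genes together with *nxf4* and *wa-cup*. A run of 9 on 2R (8358538 to 8372142) held *hubl*, *spaw*, *whip*, *swif* and *boly* within 13.6 kb. Some of these neighbours are copies of each other and share reads.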

How the data were processed

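Per the labels and the study's methods, the authors removed ribosomal RNA, sequenced paired ends, trimmed reads with Trimmomatic, aligned them with HISAT2 to build BDGP6 and quantified transcripts with StringTie. The deposited values are estimated counts per transcript, made by the authors and not normalised, in which StringTie divides reads of shared exons between transcripts. They were whole numbers, so no rounding was needed. Of 42937 transcripts, 34750 FlyBase transcripts were paired with genes by the Ensembl annotation (release 115, BDGP6.54) and summed into 17714 genes. Left out were 169 unpaired FlyBase transcripts and 8017 assembled transcripts, which held 24.55 to 32.59% of the counts of a male and 27.22 to 31.41% of a female library. The authors' length setting for StringTie, the strand of the libraries and the pooling of larvae are not given in the sources used here.

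Samples were grouped by the labels. The 6 libraries were fitted with edgeR 4.0.16 (R 4.3.3, limma 3.58.1) with TMM scaling, filterByExpr, glmQLFit and glmQLFTest on sex, with Benjamini-Hochberg adjustment over all 13700 genes tested. DESeq2 1.42.0 with apeglm 1.24.0, RLE scaling, the total of the whole table, other filters and thresholds, a replicate block and leaving out each library were alternatives, and leaving out replicate 2 of both sexes was added after the data were seen. The procedure was tested on simulated counts of the 17714 genes in which 200 were changed by 2 on the log2 scale. Of these, edgeR found 96.5% and DESeq2 92%. Further calls numbered 11 over 11883 tested genes in edgeR and 16 over 13927 in DESeq2. Simulated libraries of both sexes used the female means and 1 dispersion, estimated from females, for all genes. Only genes with counts in females were changed, so these rates do not cover genes absent from females or the wider spread of the males.

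At this depth 1 count was worth about 0.01 CPM, and the floor of 3 counts averaged 0.0279 CPM in females. Against genes at 0 in every female library, folds are lower bounds computed from the mean male CPM and the mean of that floor over the female libraries. The X over autosome value used a pseudocount of 0.5 counts and an exact permutation test over 20 assignments, with the female means kept as the reference. Transcript forms were summed by the length of their reading frame, and this step was added after the files were seen. Levels and lower bounds cover counting error only.

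The named genes were members of 35 gene lists, Y-linked, chromosome 4 and mitochondrial genes, the 15 called genes of largest change in each direction at 10 CPM or more, the 10 of highest level in each direction and the 5 of lowest p on the X chromosome, on chromosome 4 and among lncRNA genes. The comparison, its members and the gene lists were chosen with earlier results of these data known. Tables were handled with Python 3.11.15, pandas 2.3.3 and numpy 2.4.6, and figures were drawn with matplotlib 3.10.9.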

Additional observations from a re-analysis of the deposited data

Results flagged for a closer look

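Among the 8017 assembled transcripts that carry no FlyBase identifier and entered no comparison above, 121 had at least 1 CPM in every male library and 0 counts in every female library, and 7 had the reverse, with at least 1 CPM in every female library and 0 counts in every male library. Counted at any level, 395 had a count in all males and none in females, against 32 with a count in all females and none in males. These transcripts were singled out because they carry signal in data outside the main measurement. Their position and their genes were not analysed here.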

How the results depend on the processing

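Of 2412 genes that rose and 45 that fell, DESeq2 called 2688 and 69, apeglm shrinkage 2673 and 66, RLE scaling 2414 and 45, no filter on low counts 2546 and 46, and scaling by each library's whole total 2445 and 36, with the median of all genes shifted by 0.1162. Scaling by the whole total ended the calls for *Sxl* (-0.94), *Ilp6* (-0.91), *gem* (-0.95) and *Snx27* (-0.93). It also ended those for lncRNA:CR45517 (-0.96), lncRNA:flam (-1.19) and *gdl-ORF39* (-1.33). A minimum of 10 counts in every library left 506 and 27 calls, since it removes genes absent from females, among them 77 and 13 on the X chromosome and 22 and 4 lncRNA genes. It left 11 sperm structure genes, 10 spermatocyte regulators, 5 respiratory chain and 2 proteasome paralogs that rose. Without a fold threshold 175 genes fell, 88 on the X chromosome and 12 lncRNA genes, and above 2 on the log2 scale 14 fell, 5 on the X chromosome and 2 lncRNA genes. DESeq2 called 11 lncRNA genes lower, against 7. The X over autosome value of -0.1506 was -0.1216 with a pseudocount of 1 CPM and -0.1671 to -0.135 with 1 library left out.

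Leaving out 1 library gave 2373 to 2443 genes that rose and 33 to 67 that fell, 358 to 370 and 14 to 26 on the X chromosome, and 315 to 361 and 5 to 11 among lncRNA genes. The 67 came without male 2 (33 of the 45 shared) and the 33 without female 1, and the 11 lncRNA genes without male 1. Without replicate 2 of both sexes, 2368 rose (2275 shared) and 59 fell (25 shared), and *Yp2* at -4.36 was not called. Whether the replicate numbers pair the libraries is not given. Deviations of same-numbered males and females correlated at 0.127, 0.116 and -0.057, and those of other pairs at -0.203 to 0.132. With 3 libraries of each sex these values cannot decide it. With a replicate block 2070 genes rose, 153 of them lncRNA genes, against 330 without it, and 35 fell. Among the genes of the lists and the named genes, 18 lost their call with the block. They included *msl-2* (1.14, edgeR adjusted p = 0.0612), *BoYb*, *Snx27*, *gdl-ORF39*, *Acp24A4*, *Ste12DOR*, *ng2*, lncRNA:CR45517 and lncRNA:flam. No named gene that was called moved to a call in the opposite direction under any of these alternatives. Fold changes near 0 of genes not called can change sign. Levels near 1 count limit the low end, where folds against female libraries rest on a few reads. The cause of these changes was not tested, apart from the filter.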
